A study of Saccharomyces cerevisiae with 8 samples.

Results

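Isolated ACA sites are the cut sites of the MazF endoribonuclease whose listed neighbours, upstream and downstream on the same strand, both lay more than 150 nt away. After 1 entry was kept per position and strand, 5131 of 76330 listed sites (6.72%) met this rule, and the other 71199 did not. The rule used positions and no measured efficiency, but every listed position had a value in at least 1 library. The rule left out 64 sites, the first and last listed ones of each chromosome strand, where a neighbour is missing. The isolated sites lay in 3133 gene models, the transcribed stretches to which the deposited table assigned its sites. Of these models, 1874 held 1 isolated site and 1259 held 2 or more. The most in a model was 8, in ENA1, which encodes a plasma membrane sodium pump, in DOP1 and in TRA1, which encodes a subunit of the SAGA and NuA4 coactivators.

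Polyadenylated RNA of diploid SK1 yeast was profiled after induction of meiosis. KO cells were disrupted at both copies of the methyltransferase gene (ime4::HIS3/ime4::HIS3), and WT cells were not. All cells of both genotypes were MAT a/alpha diploids, homozygous for lys2, with LYS2 inserted at ho (ho::LYS2) and LEU2 at NDT80 (ndt80::LEU2), again on both copies. NDT80 encodes the regulator needed to leave pachytene, and its disruption is shared by KO and WT. RNA was taken after pulldown with an anti-m6A antibody (IP) or without it (input), in 2 biological replicates each of KO IP, WT IP, KO input and WT input, 8 libraries in all. The labels give neither the time after induction nor whether IP and input libraries came from the same cultures, so p-values measure the spread between these libraries.

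MazF is a bacterial endoribonuclease that cuts RNA before an ACA and does not cut where the first A carries N6-methyladenosine (m6A). Ime4 is the catalytic subunit of the yeast mRNA m6A methyltransferase and acts early in meiosis. Cutting is read from fragment ends and from reads that run through a site, and a fragment has to fall within the lengths that a library retains. An isolated site has no listed near neighbour with which it could bound a short fragment. ACAs that are not listed were not looked at.

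The measured quantity was the cleavage efficiency, a fraction between 0 and 1 per site and library. A higher value was taken to mean more cutting, which rests on the name of the quantity alone. Without read counts, the number of reads under a value is unknown, and no interval was computed. The columns had nearly equal distributions, and the median of the other sites was between 0.629 and 0.639 in all 8 libraries. A median of the isolated sites therefore says where they stood within their own library. As a check of the labels, IME4 had 27 listed sites and no isolated one. Of these, 0 and 0 were measured in KO IP, 16 and 24 in WT IP, 2 and 0 in KO input, and 21 and 23 in WT input.

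The nearer neighbour of an isolated site lay a median of 187 nt away, against 70 nt over all listed sites. An isolated site often stood at the edge of its gene model, where the next listed site belonged to another gene. Both neighbours lay in the same model for 2634 isolated sites (51.3%), against 88.1% of the other sites; these are called internal sites. The downstream neighbour lay in another model for 1087 isolated sites (21.2%), against 6.05% of the others, and these are called downstream-edge sites. The upstream neighbour lay in another model for 1259 (24.5%), against 5.81%, the upstream-edge sites. For 151 (2.94%, against 0.0112%) neither neighbour was in the same model, the lone sites. An isolated site was the last listed one of its model in 1282 cases, against 4680 of the 71199 others (6.57%), and the first in 1454 cases (28.3%), against 6.33% of the others. Every listed site had a value in at least 1 library, so an ACA that no library measured does not count as a neighbour here.

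Most isolated sites (4953) lay in protein-coding models. Another 25 lay in models of other kinds, among them 6 in ribosomal RNA, 2 in telomerase RNA and 14 in pseudogenes, and 153 lay in models without a match in the gene table. The share of listed sites that were isolated ranged over chromosomes between 5.52% on chromosome 1 and 7.58% on chromosome 15. Plus-strand sites made up 50.5% of the isolated sites and 50.4% of the others.

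Isolated sites were measured less often than the others in every library. Membership and this share are not independent. Every listed site had a value in at least 1 library, so a stretch with few measured ACAs can have both wide gaps and few values. The p-values below therefore do not tell wide spacing from thin measurement. The share with a value was 26.8% and 38.2% in KO IP, 36.1% and 50.9% in WT IP, 63.1% and 64.3% in KO input, and 42.3% and 71.1% in WT input. Among the other sites it was 37.0% and 49.9% in KO IP, 44.2% and 57.5% in WT IP, 81.8% and 82.5% in KO input, and 60.7% and 82.7% in WT input. The mean difference was -12.9 ± 4.84 percentage points (SD over 8 libraries; isolated lower in 8 of 8; exact two-sided sign-flip permutation p = 0.0078125, the smallest that 8 libraries allow; adjusted p = 0.0117 over 3 such tests). An isolated site was measured in only 1 of the 8 libraries in 25.4% of cases, against 9.13% of the others. Within the 2886 models that held both kinds of site, the difference averaged over models was -6.39 ± 3.54 points (SD over 8 libraries; isolated lower in 8 of 8; exact two-sided sign-flip permutation p = 0.0078125), a comparison chosen after seeing the data.

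Where they were measured, isolated sites had the higher median efficiency in each library. It was 0.741 and 0.724 in KO IP, 0.695 and 0.682 in WT IP, 0.701 and 0.703 in KO input, and 0.676 and 0.649 in WT input. The other sites had 0.631 and 0.631 in KO IP, 0.633 and 0.633 in WT IP, 0.631 and 0.629 in KO input, and 0.639 and 0.637 in WT input. The mean difference was 0.0636 ± 0.0311 (SD over 8 libraries; isolated higher in 8 of 8; exact two-sided sign-flip permutation p = 0.0078125; adjusted p = 0.0117). Over sites measured in all 8 libraries it was 0.111. Within gene models that held both kinds of measured site it was smaller. The median difference over models averaged 0.0324 (SD 0.0235 over 8 libraries; isolated higher in 7 of 8, lower in WT input replicate 2; exact p = 0.015625). The mean difference over models, chosen after seeing the data, averaged 0.00269 (SD 0.0216; isolated higher in 5 of 8; exact p = 0.727), so the call did not hold in that measure. The 8 libraries are 4 groups of 2 and may share cultures, which this test does not model. They also measure many of the same sites. The sign-flip p-values here and below therefore measure the spread between libraries, not between sites.

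Fewer isolated sites were cut at an efficiency below 0.5. Their share differed by a mean of -3.57 percentage points (SD 2.40 over 8 libraries; lower in 7 of 8; exact two-sided permutation p = 0.015625; adjusted p = 0.0156). It was -7.42 points over sites measured in all 8 libraries, -6.56 with an isolation limit of 100 nt, and -4.51 as a mean over gene models that held both kinds of site (each lower in 8 of 8, exact p = 0.0078125). With a limit of 200 nt it was 1.28 points (lower in 4 of 8, exact two-sided permutation p = 0.281), so the lower share was not seen there. The exception in the difference over all measured sites was WT input replicate 2, with 41.3% of isolated and 40.9% of other sites below 0.5. The difference was largest in KO IP replicate 1, with 34.6% of isolated and 41.4% of other sites.

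Efficiency did not climb steadily with spacing. Sites whose nearer neighbour was 1 to 25 nt away had medians between 0.661 and 0.694 over the 8 libraries. The medians were lowest among the close bins at 51 to 75 nt, between 0.544 and 0.568. They were between 0.678 and 0.725 at 101 to 150 nt, and between 0.686 and 0.758 for the 3043 isolated sites at 151 to 200 nt. The 1331 isolated sites at 201 to 300 nt had medians between 0.623 and 0.747. The 757 beyond 300 nt had medians between 0.336 and 0.572, and only 13.2% to 50.5% of them were measured in a library. Over the 45 of them measured in all 8 libraries the medians were between 0.582 and 0.793, so the low medians were not seen there. With a limit of 200 nt in place of 150 nt, the difference between isolated and other sites was -0.00896 (exact p = 0.672; isolated higher in 3 of 8 libraries), so the higher median was not seen over all sites beyond 200 nt.

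**Figure D1:**
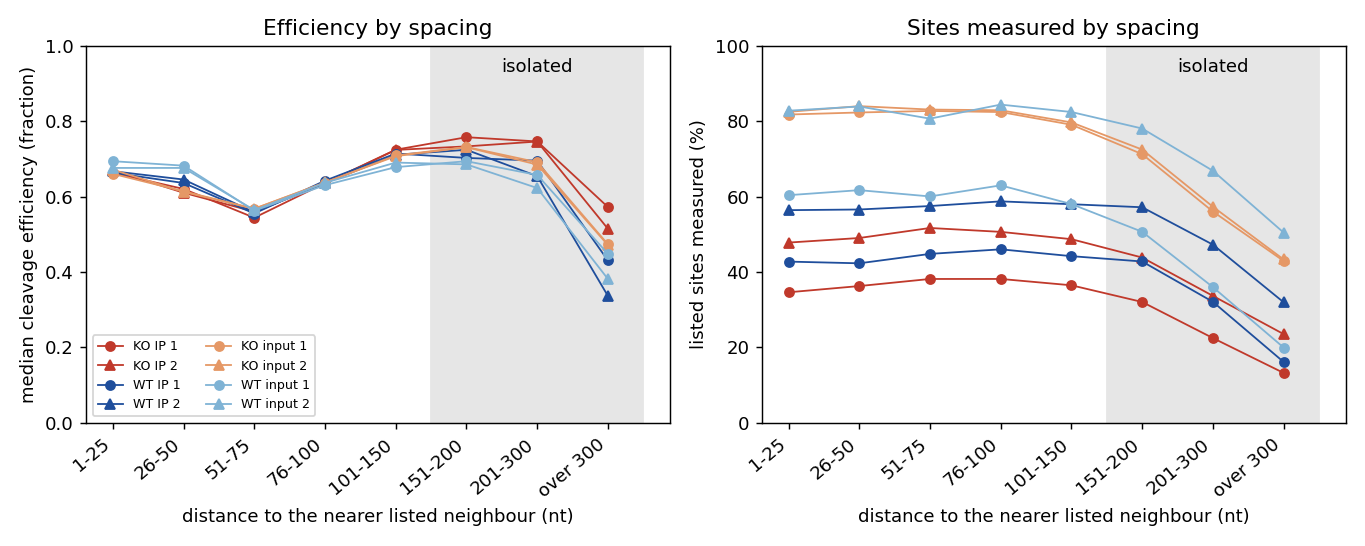
Median cleavage efficiency (left, fraction) and share of listed sites measured (right, %) against the distance to the nearer listed neighbour in nt, 1 line per library; the grey band holds the isolated sites. Medians dip to between 0.544 and 0.568 at 51 to 75 nt, reach 0.686 to 0.758 at 151 to 200 nt and lie between 0.336 and 0.572 beyond 300 nt, where 13.2% to 50.5% of the sites were measured; over the 45 sites beyond 300 nt with a value in all 8 libraries, which are not drawn apart, medians were between 0.582 and 0.793.

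Efficiencies just inside and just outside the limit of 150 nt overlapped. The 104 isolated sites with a nearer neighbour at exactly 151 nt had medians of 0.767 and 0.834 in KO IP, 0.703 and 0.770 in WT IP, 0.836 and 0.800 in KO input, and 0.734 and 0.745 in WT input. The 137 sites at exactly 150 nt, just outside, had 0.823 and 0.832 in KO IP, 0.815 and 0.738 in WT IP, 0.771 and 0.731 in KO input, and 0.760 and 0.745 in WT input. The ranges of the 2 sets over libraries overlapped.

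Replicates of isolated sites were about as far apart as those of other sites. The median absolute difference between the 2 replicates of a group was 0.0533 for isolated and 0.0547 for other sites in KO IP, 0.0526 and 0.0522 in WT IP, 0.0436 and 0.0415 in KO input, and 0.0548 and 0.0510 in WT input. Pearson's r between replicates, across isolated sites, was 0.950 in KO IP, 0.937 in WT IP, 0.967 in KO input and 0.905 in WT input. Sites share library and normalization, and 4 groups cannot give an exact p below 0.05, so these values are a description. In each library, 3.42% to 11.2% of the measured isolated sites sat at the top value of their column, where replicates can look closer than they are.

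The place of the neighbours separated isolated sites by genotype. Downstream-edge isolated sites, which lie towards the 3' end of the transcript, had medians of 0.855 and 0.860 in KO IP against 0.695 and 0.657 in WT IP. In input they had 0.814 and 0.823 in KO against 0.686 and 0.662 in WT. All 4 KO libraries lay above all 4 WT libraries, with a mean difference (KO minus WT, over IP and input) of 0.163. The exact permutation p within IP and input was 0.0556, the smallest that 2 against 2 in both allows, so the design cannot reach 0.05. The other sites at a downstream edge differed by 0.173 in the same direction (exact p = 0.0556).

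Upstream-edge isolated sites, towards the 5' end, went the other way. Their medians were 0.520 and 0.515 in KO IP against 0.720 and 0.672 in WT IP, and 0.553 and 0.564 in KO input against 0.694 and 0.577 in WT input. All 4 KO libraries lay below all 4 WT libraries, by a mean of -0.128 (exact p = 0.0556), and the other upstream-edge sites differed by -0.121. WT input replicate 2, at 0.577, was close to the KO input libraries. Internal isolated sites had medians of 0.698 and 0.678 in KO IP against 0.698 and 0.731 in WT IP, and 0.689 and 0.690 in KO input against 0.683 and 0.676 in WT input. There the genotypes overlapped, with a difference of -0.00823 (exact p = 0.611). Lone sites had low medians, between 0.0817 and 0.374, from 21 to 109 measured sites in a library.

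**Figure D2:**
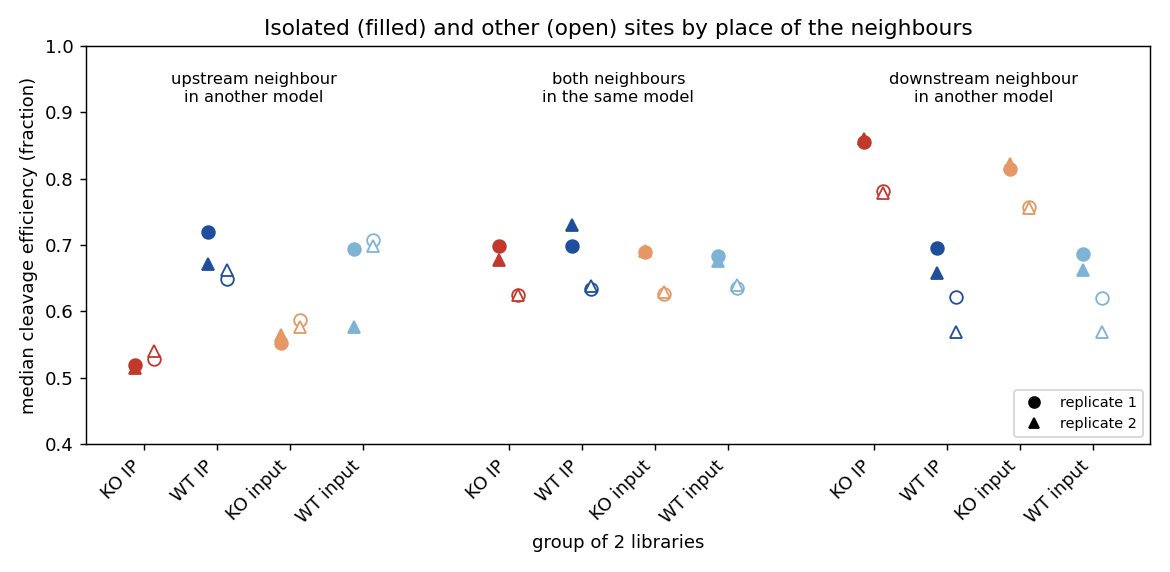
Median cleavage efficiency (fraction, axis from 0.4 to 1) of isolated sites (filled) and other sites (open) in each library (circle, replicate 1; triangle, replicate 2), by where the listed neighbours lie. At downstream edges the KO medians of isolated sites are 0.814 to 0.860, above the WT medians of 0.657 to 0.695; at upstream edges KO is below WT; internal sites overlap.

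The difference between isolated and other sites was then taken within each class. Internal isolated sites exceeded internal other sites by a mean of 0.0614 (higher in 8 of 8 libraries; exact p = 0.0078125), and downstream-edge isolated sites exceeded other downstream-edge sites by 0.0754 (8 of 8; exact p = 0.0078125). Upstream-edge isolated sites did not differ detectably from their counterparts, by a mean of -0.0169 ± 0.0535 (SD over 8 libraries; higher in 2 of 8; exact p = 0.453). Over all classes together the excess of isolated sites was 0.0465 larger in KO than in WT libraries (exact p = 0.0556, the smallest possible). Within internal sites that genotype difference was 0.00215 (exact p = 0.833), within downstream-edge sites -0.0107 (exact p = 0.278) and within upstream-edge sites -0.00696 (exact p = 0.833). Isolated sites stood at model edges more often than other sites, and the medians of KO and WT differed there. The part of this in the pooled genotype difference was not tested.

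Single sites were compared among the 17365 sites measured in all 8 libraries, of which 843 were isolated, in 705 models. These are 16.4% of the isolated sites, against 23.2% of the others, and the rest could not enter the fit. Each adjusted p below comes from limma on the fraction over all tested sites, with Benjamini-Hochberg adjustment and a threshold of 0.05, and each SE is that of the difference in the same fit with n = 2 libraries per group. Positions are those of the deposited table, whose genome build is not given in the sources used here. Offsets such as +696 give the distance in nt downstream of the model's first base, introns included. Exon, intron and UTR were not given.

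In KO IP against WT IP, 325 of the 843 isolated sites differed (38.6%), against 41.3% of all tested sites. Efficiency was higher in KO at 143 of them (17.0%, against 17% of all tested sites) and lower at 182 (21.6%, against 24.3%). These shares are near the background, so isolated sites did not stand out by how often they differed. The median difference was 0.343 among the higher and -0.292 among the lower sites. A difference of at least 0.5 was seen at 38 higher sites (background 4.75%) and 18 lower ones (background 2.71%).

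The direction went with the place of the neighbours. Of 283 tested downstream-edge isolated sites, 75 were higher and 43 lower in KO IP. Of 106 upstream-edge sites, 11 were higher and 28 lower. Of 449 internal sites, 57 were higher and 111 lower, and of the 5 lone sites none passed, nor at an unadjusted p below 0.05. The other sites divided in the same way, with 254 higher and 139 lower of 893 at downstream edges, 74 higher and 133 lower of 509 at upstream edges, and 2480 higher and 3771 lower of 15120 internal sites.

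**Figure D3:**
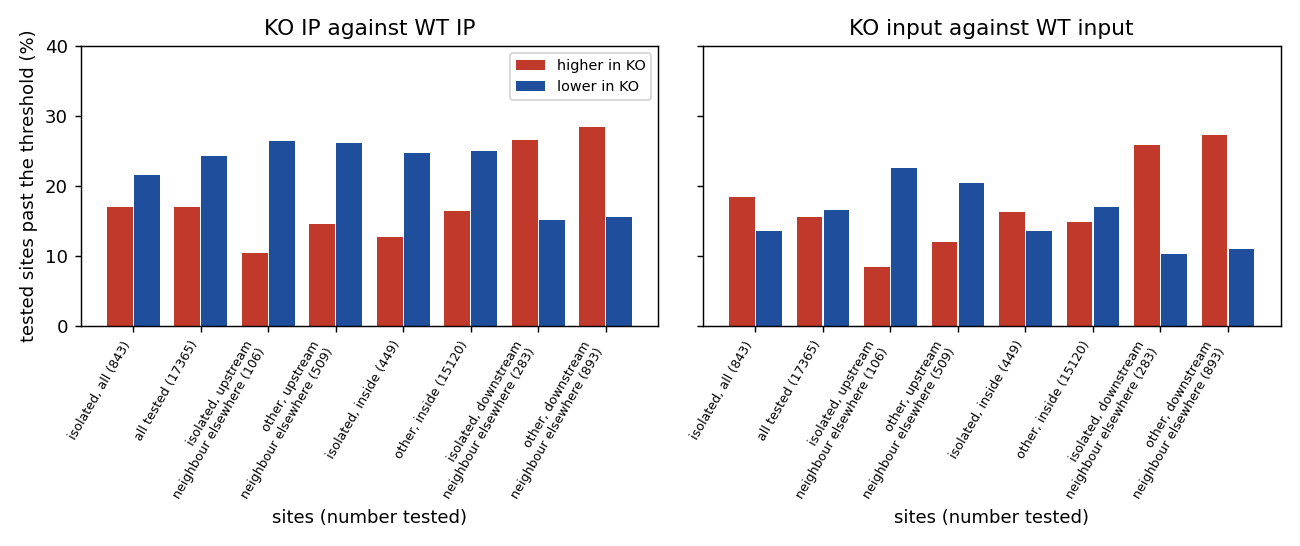
Share of tested sites (%, bars from 0) past an adjusted p of 0.05 that were higher (red) or lower (blue) in KO, in IP (left) and input (right), with the number tested in parentheses. At downstream edges more sites were higher than lower (75 and 43 of 283 isolated sites in IP), and at upstream edges more were lower (11 and 28 of 106).

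At the 10 largest gains, every KO IP value was at or above 0.828 and every WT IP value at or below 0.169. Of these sites, 8 were downstream-edge sites. AHP1 +696 (chromosome 12, position 367291, plus strand) lies in the gene of a thiol peroxidase. It had 1.00 and 0.973 in KO IP against 0.0269 and 0.0325 in WT IP, and 0.953 and 0.953 in KO input against 0.313 and 0.274 in WT input. The difference was 0.96 ± 0.0249 in IP (SE, adjusted p = 4.93e-05) and 0.66 ± 0.0249 in input (adjusted p = 1.55e-04). The value of 1.00 is the highest of its column.

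SSL2 +2841 (chromosome 9, position 88375, minus strand) lies in the gene of the TFIIH helicase. It had 0.914 and 0.922 in KO IP against 0.00156 and 0.0130 in WT IP, and 0.953 and 0.940 in KO input against 0.0944 and 0.0588 in WT input. It was the isolated site with the largest difference in input among those named, 0.87 ± 0.0238 (SE, adjusted p = 1.55e-04), beside 0.91 ± 0.0238 in IP (adjusted p = 4.93e-05). ROX1 +1373 (chromosome 16, position 694144, plus strand), in the gene of the repressor of hypoxic genes, had neighbours 156 nt away on both sides. It had 0.909 and 0.931 in KO IP against 0.0278 and 0.0232 in WT IP, and 0.940 and 0.917 in KO input against 0.107 and 0.106 in WT input. The replicates of each group lay within a few hundredths of each other at both sites, and the genotypes were far apart with and without the antibody.

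Both SLT2, the MAP kinase of the cell wall integrity pathway, and BCK1, the kinase at the head of the same cascade, held such a site. SLT2 +1594 (chromosome 8, position 165074, minus strand) had 0.964 and 0.938 in KO IP against 0.0515 and 0.0282 in WT IP, and 0.932 and 0.939 in KO input against 0.401 and 0.351 in WT input. The difference in IP was 0.91 ± 0.0274 (SE, adjusted p = 4.93e-05). BCK1 +4637 (chromosome 10, position 262177, plus strand) had 0.922 and 0.894 in KO IP against 0.0814 and 0.0285 in WT IP, and 0.924 and 0.908 in KO input against 0.411 and 0.162 in WT input. Its difference in IP was 0.85 ± 0.0788 (SE, adjusted p = 7.01e-04), with the wider error coming with the unlike WT input replicates. CCW14 +966 (chromosome 12, position 903329, plus strand), in the gene of a cell wall glycoprotein, had 0.929 and 0.904 in KO IP against 0.0591 and 0.0374 in WT IP.

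SKY1 +2363 (chromosome 13, position 688218, minus strand), in the gene of an SR protein kinase, was internal to its model, with neighbours at 162 and 152 nt. It had 0.930 and 0.957 in KO IP against 0.110 and 0.0909 in WT IP. PUT1 +1616 (chromosome 12, position 424268, plus strand), in the gene of proline oxidase, had 0.934 and 0.933 in KO IP against 0.169 and 0.115 in WT IP. CCH1 +6316 (chromosome 7, position 948829, plus strand), in the gene of a plasma membrane calcium channel, had 0.828 and 0.883 in KO IP against 0.0987 and 0.0715 in WT IP. CSS1 +5870 (chromosome 9, position 28362, minus strand) had 0.984 and 0.855 in KO IP against 0.169 and 0.122 in WT IP, and its gene has related copies, so reads there are uncertain. KO IP and WT IP did not overlap at these sites, which the rule for naming sites required. KO input and WT input, which that rule did not compare for these sites, did not overlap either. The adjusted p in IP was between 4.93e-05 and 7.01e-04 over the 10. All 10 were also higher in KO input than in WT input, from 0.18 ± 0.0492 at CSS1 (SE, adjusted p = 0.0387) to 0.87 at SSL2.

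The 6 largest losses in KO IP were smaller, and only THI20 was a downstream-edge site. GAP1 +1974 (chromosome 11, position 524058, plus strand), in the gene of the general amino acid permease, had 0.299 and 0.341 in KO IP against 0.997 and 0.981 in WT IP. In input it had 0.232 and 0.156 in KO against 0.930 and 0.951 in WT. Its difference of -0.67 ± 0.0338 in IP (SE, adjusted p = 1.22e-04) and -0.75 ± 0.0338 in input (adjusted p = 2.41e-04) was the mirror of the gains. IZH1 +45 (chromosome 4, position 1426639, plus strand), in the gene of a membrane protein of zinc homeostasis, had 0.368 and 0.481 in KO IP against 0.963 and 1.00 in WT IP, and in input 0.457 and 0.488 in KO against 0.948 and 0.956 in WT.

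HNM1 +384 (chromosome 7, position 370035, minus strand), in the gene of the choline transporter, had 0.308 and 0.0771 in KO IP against 0.794 and 0.819 in WT IP. In input it had 0.382 and 0.363 in KO against 0.416 and 0.499 in WT, a difference of -0.08 ± 0.0759 (SE, adjusted p = 0.444) that did not pass. ENA1 +3245 (chromosome 4, position 550099, minus strand) had 0.262 and 0.411 in KO IP against 0.997 and 0.883 in WT IP. THI20 +1696 (chromosome 15, position 223791, minus strand), in a gene of thiamine synthesis, had 0.404 and 0.336 in KO IP against 0.972 and 0.890 in WT IP. ENA1 and THI20 have near-identical copies, so their values are uncertain. The adjusted p of the 6 losses in IP was between 1.22e-04 and 0.00193. The values of GAP1 and ENA1 in WT IP replicate 1 and of IZH1 in WT IP replicate 2 are the highest of their columns.

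**Figure D4:**
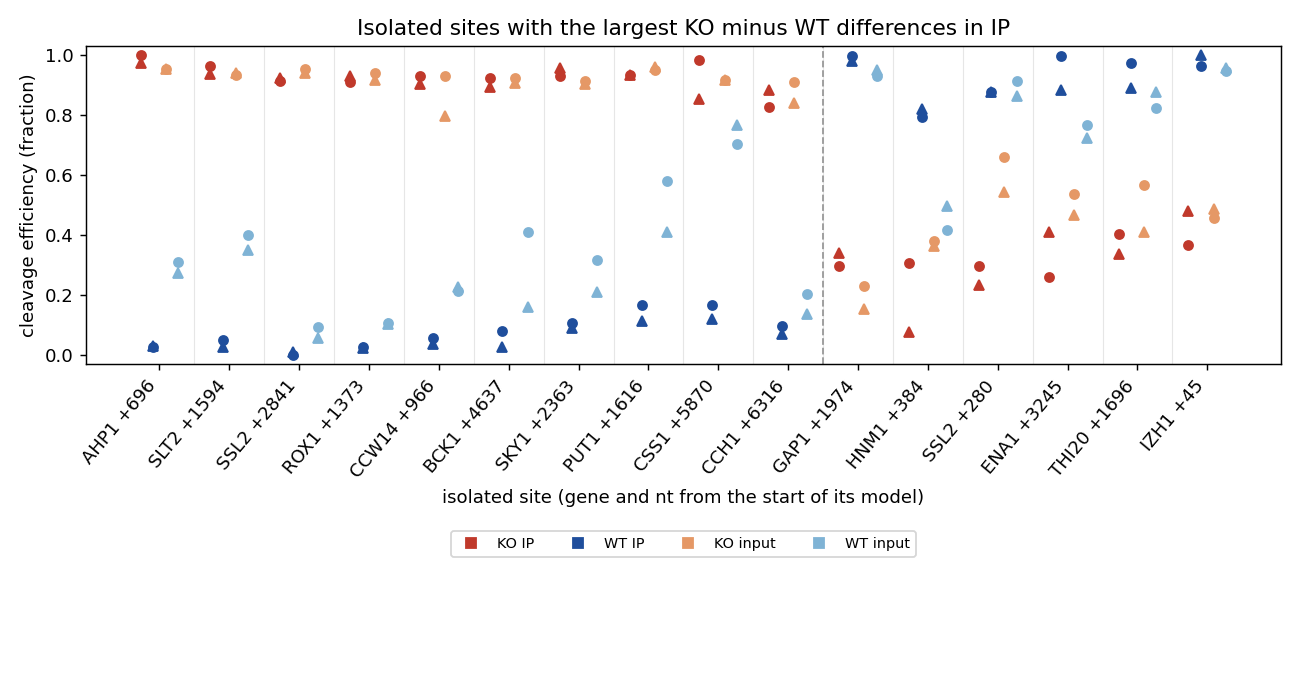
Cleavage efficiency (fraction) in each library (circle, replicate 1; triangle, replicate 2) at the 10 isolated sites with the largest gain (left of the dashed line) and the 6 with the largest loss in KO IP. At the gains all KO values are at or above 0.797 and all WT IP values at or below 0.169; WT input mostly lies between WT IP and KO.

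SSL2 held one site of each kind. SSL2 +280 (chromosome 9, position 90936, minus strand), near the start of the model, had 0.296 and 0.235 in KO IP against 0.876 and 0.878 in WT IP, a difference of -0.61 ± 0.0466 (SE, adjusted p = 3.83e-04). Of 122 models with 2 or more tested isolated sites, 15 had sites past the threshold in both directions, 3 had 2 or more higher and 10 had 2 or more lower. In 12 of the 15 the most downstream of these sites was higher in KO and all before it were lower, in 2 the order was opposite, and in 1 (BMH1) it was mixed. This split was looked at after the values were seen and was not tested. It was not counted for the other sites, so nothing here marks it as particular to isolated sites. The other sites leaned the same way in IP, with 254 higher and 139 lower of 893 at downstream edges, and 74 and 133 of 509 at upstream edges. In VMA13, for a subunit of the vacuolar ATPase, +1496 had 0.214 and 0.184 in KO IP against 0.330 and 0.404 in WT IP, while +1668 had 0.964 and 0.871 in KO IP against 0.321 and 0.382 in WT IP. In PCD1 the order was opposite, with 0.851 and 0.935 in KO IP against 0.326 and 0.310 in WT IP at +496, and 0.228 and 0.193 in KO IP against 0.658 and 0.821 in WT IP at +698. VMA13 and PCD1 were chosen after their values were seen.

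In KO input against WT input, 269 of the 843 isolated sites differed (31.9%), against 32.2% of all tested sites. Efficiency was higher in KO at 155 (background 15.6%) and lower at 114 (background 16.6%). The count fell to 141 without KO input replicate 1 and to 139 without KO input replicate 2. In both of these fits the share over all tested sites fell as well, so the fall was not particular to isolated sites. Of 283 isolated downstream-edge sites, 73 were higher and 29 lower in KO, against 244 and 98 of 893 other downstream-edge sites. Of 106 isolated upstream-edge sites, 9 were higher and 24 lower, against 61 and 104 of 509 others. Of 449 isolated internal sites, 73 were higher and 61 lower, against 2243 and 2567 of 15120 others. The edge classes thus leaned the same way in isolated and other sites.

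Sites named in input that were not among those above repeat the contrast. TLG1 +650 (chromosome 4, position 1390014, minus strand), in the gene of an endosomal SNARE, had 0.964 and 0.997 in KO input against 0.258 and 0.254 in WT input, and 0.908 and 0.913 in KO IP against 0.243 and 0.195 in WT IP. Its WT values were alike in IP and input. DDC1 +1083 (chromosome 16, position 188279, plus strand), in the gene of a DNA damage checkpoint clamp subunit, had 0.344 and 0.445 in KO input against 0.992 and 0.939 in WT input. The value of 0.992 is the highest of its column. CLB5 +1204 (chromosome 16, position 790158, minus strand), in the gene of an S-phase cyclin, had 0.235 and 0.330 in KO input against 0.898 and 0.767 in WT input. PCK1 +1537 (chromosome 11, position 640826, plus strand), in the gene of the gluconeogenic enzyme phosphoenolpyruvate carboxykinase, had 0.354 and 0.363 in KO input against 0.882 and 0.934 in WT input. The 3 losses had differences between -0.57 and -0.55, with adjusted p between 0.0035 and 0.00606. Their input values did not overlap between genotypes, which the rule for naming sites required.

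The changes in IP and input went together. Pearson's r between them was 0.770 across the 843 isolated sites and 0.747 across the other tested sites, with all libraries sharing 1 normalization. Of the 143 sites higher in KO IP, 89 were also higher in KO input and 1 was lower. Of the 182 lower in KO IP, 98 were also lower in KO input and none was higher. The matching counts among the other tested sites are not given, so these counts do not mark isolated sites as particular.

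**Figure D5:**
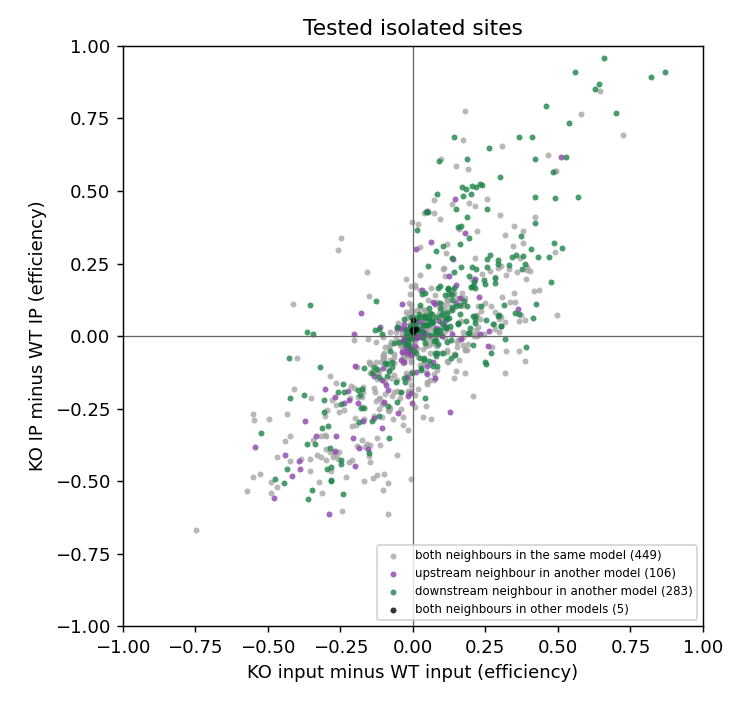
Difference in efficiency between KO and WT in IP (vertical) and in input (horizontal) at the 843 tested isolated sites, coloured by where the neighbours lie. The points run along the rising diagonal (r = 0.770), and the highest gains in both are mostly downstream-edge sites.

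In WT IP against WT input, 167 isolated sites differed (19.8%), against 20.9% of all tested sites, with 109 higher in IP (background 12.4%) and 58 lower (background 8.42%). The count was 106 without WT IP replicate 1, and 102 without KO input replicate 1 or KO input replicate 2. Over all tested sites the share fell in these fits too. Of 449 isolated internal sites, 74 were higher and 27 lower in IP (16.5% and 6.01%), against 1891 and 1281 of 15120 other internal sites (12.5% and 8.47%). Of 283 isolated downstream-edge sites, 21 were higher and 26 lower, against 104 and 82 of 893 others. Of 106 isolated upstream-edge sites, 14 were higher and 5 lower, against 55 and 42 of 509 others. These differences between isolated and other sites were not tested. PRE3 +342 (chromosome 10, position 449714, plus strand), in the gene of a catalytic subunit of the proteasome, had 0.261 and 0.110 in WT IP against 0.897 and 0.855 in WT input (difference -0.69 ± 0.0818, SE, adjusted p = 0.00457). CAT2 +271 (chromosome 13, position 194267, plus strand), in the gene of carnitine acetyltransferase, had 0.202 and 0.0731 in WT IP against 0.753 and 0.792 in WT input. UFE1 +1054 (chromosome 15, position 470913, plus strand), in the gene of a SNARE of the endoplasmic reticulum, had 0.390 and 0.324 in WT IP against 0.947 and 0.943 in WT input, and CSS1 +5870 was also lower in IP. At these sites the pulled-down WT RNA was cut less than the WT RNA before pulldown.

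Among sites cut more after pulldown, GAR1 +812 (chromosome 8, position 281902, minus strand), in the gene of an H/ACA ribonucleoprotein subunit, had 0.876 and 0.917 in WT IP against 0.428 and 0.396 in WT input (difference 0.48 ± 0.0446, SE, adjusted p = 0.00232). EOS1 +1034 (chromosome 14, position 494851, minus strand) had 0.692 and 0.759 in WT IP against 0.174 and 0.265 in WT input. MEF2 +759 (chromosome 10, position 242346, plus strand), in the gene of a mitochondrial translation factor, had 0.976 and 1.00 in WT IP against 0.586 and 0.443 in WT input. Its value of 1.00 is the highest of its column. YOR019W +1095 (chromosome 15, position 370568, plus strand) had 0.935 and 0.951 in WT IP against 0.315 and 0.516 in WT input (adjusted p = 0.00538, and 0.0518 with only the 4 WT libraries).

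In KO IP against KO input, 14 isolated sites differed (1.66%), against 1.68% of all tested sites, with 10 higher (background 1.09%) and 4 lower (background 0.587%). These counts depended on single libraries. They were 3 without WT IP replicate 1 or WT IP replicate 2, 0 without any 1 of the other 6 libraries, and 0 with only the 4 KO libraries. Each of these fits also gave a lower share over all tested sites. At an unadjusted p below 0.05 there were 96 of the 843 isolated sites, against 2842 of all 17365 tested sites. The named sites were therefore values without a firm call. RPS16A +329, in a ribosomal protein gene with a near-identical copy, had 0.551 and 0.412 in KO IP against 0.0283 and 0.0139 in KO input. VMA3 +670, in the gene of the vacuolar ATPase proteolipid, had 0.411 and 0.446 in KO IP against 0.0638 and 0.0493 in KO input. RPS21B +237, also duplicated, had 0.328 and 0.349 in KO IP against 0.0172 and 0.0278 in KO input. SIP4 +1249, in the gene of an activator of gluconeogenic genes, had 0.138 and 0.222 in KO IP against 0.561 and 0.605 in KO input. SSL2 +280 had 0.296 and 0.235 in KO IP against 0.661 and 0.544 in KO input. COS4 +1238, in a family of near-identical genes, had 0.523 and 0.637 in KO IP against 0.861 and 0.891 in KO input. With only the KO libraries the adjusted p of these 6 was between 0.114 and 0.130.

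The interaction asks whether IP minus input differed between KO and WT. It passed at 50 isolated sites (5.93%, against 7.76% of all tested sites), with 27 higher in KO (background 4.31%) and 23 lower (background 3.44%). It passed at 0 isolated sites without KO input replicate 1 or KO input replicate 2, and at 26 to 32 without any 1 of the 4 IP libraries. With any of these libraries left out, the share over all tested sites fell as well. At an unadjusted p below 0.05 there were 183 of the 843 isolated sites, against 4224 of all 17365 tested sites.

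Few genes of the functional lists had tested isolated sites, and several sites shared a gene. The backgrounds for the list counts are those over all tested sites, 17% higher and 24.3% lower in IP, and 15.6% higher and 16.6% lower in input. With lists of 3 to 17 sites, nothing is read from a share. Of 3 sites in 3 genes of the meiotic entry list, 1 was higher and none lower in KO IP, with a median difference of 0.0677, against -0.00884 over all tested sites. In KO input 2 were higher and none lower (median 0.202). RIM4 +2487, in the gene of a translational repressor of meiotic messages, had 0.924 and 0.926 in KO IP against 0.512 and 0.358 in WT IP (difference 0.49 ± 0.0508, SE, adjusted p = 0.00106). It was a downstream-edge site, as were most of the large gains.

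Of 11 sites in 8 genes of the list of recombination, synapsis and cohesion genes, none was higher and 4 were lower in KO IP (median difference -0.00770, against -0.00884 over all tested sites). In KO input 3 were higher and 2 lower (median 0.0356, against -1.03e-04). MSH5 +2616, in the gene of a crossover factor, had 0.348 and 0.321 in KO IP against 0.921 and 0.718 in WT IP. REC8 +1769, in the gene of the meiotic cohesin subunit, had 0.624 and 0.574 in KO IP against 0.836 and 0.875 in WT IP. Its values in input were almost the same, 0.628 and 0.604 in KO against 0.833 and 0.874 in WT.

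Of 17 sites in 12 genes of the list of acetate use, TCA cycle, glyoxylate and carbohydrate metabolism, 2 were higher and 8 lower in KO IP, and 2 were higher and 8 lower in KO input. The median differences were -0.139 in IP and -0.0958 in input, against -0.00884 and -1.03e-04 over all tested sites. ACO1 +2696, in the gene of aconitase, had 0.659 and 0.793 in KO IP against 0.359 and 0.131 in WT IP. CDC19 +1067, in the gene of pyruvate kinase, had 0.515 and 0.493 in KO IP against 0.997 and 0.876 in WT IP. Its value of 0.997 is the highest of its column. FUM1 +784, in the gene of fumarase, had 0.741 and 0.830 in KO IP against 0.609 and 0.381 in WT IP (adjusted p = 0.0311). That call ended without any 1 of KO IP replicates 1 and 2, WT IP replicate 2 and KO input replicates 1 and 2, with adjusted p between 0.0601 and 0.135. PCK1 and CAT2, described above, belong to the same list.

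Of 9 sites in 6 genes of the list of chaperones and proteasome subunits, 1 was higher and 4 lower in KO IP (median -0.0446), and likewise 1 and 4 in KO input (median -0.0535). CDC48 +1282, in the gene of a segregase ATPase, had 0.439 and 0.279 in KO IP against 0.849 and 0.799 in WT IP. The last site of CDC48, +2730, was the higher one of the list, with 0.691 and 0.721 in KO IP against 0.446 and 0.369 in WT IP. RPT3 +1343, for a proteasome ATPase, had 0.381 and 0.308 in KO IP against 0.836 and 0.770 in WT IP. PUP1 +844, for a catalytic proteasome subunit, had 0.445 and 0.588 in KO IP against 0.882 and 0.897 in WT IP.

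Of 10 sites in 9 genes of the list of cytosolic ribosome and translation factors, 2 were higher and 2 lower in KO IP (median -0.0389), and 1 was higher and 1 lower in KO input (median -0.0179). RPL28 +970, in a ribosomal protein gene, had 0.907 and 0.920 in KO IP against 0.476 and 0.439 in WT IP (difference 0.46 ± 0.0273, SE, adjusted p = 1.90e-04). TIF2 +1495, for translation initiation factor eIF4A, had 0.938 and 0.905 in KO IP against 0.705 and 0.554 in WT IP, and shares its sequence with TIF1, so it is uncertain. RPS3 +145, in a ribosomal protein gene, had 0.649 and 0.634 in KO IP against 0.882 and 0.964 in WT IP. The calls of TIF2 (adjusted p = 0.0177) and RPS3 (adjusted p = 0.0125) ended without KO IP replicate 1, KO IP replicate 2 or WT IP replicate 2, with adjusted p between 0.0608 and 0.0806 for TIF2 and between 0.0511 and 0.0628 for RPS3.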

How the data were processed

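The deposited values are cleavage efficiencies per ACA site and library, a fraction that the authors normalized per the file headers and name, by a method the labels do not give. The submitters' processing notes name 2 tools without saying what each did, STAR 2.5.3a and bedtools 2.26.0. The efficiency formula, minimum depth and genome build are not given in the sources used here. Read depth is unknown.

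The table held 77601 lines for 6104 gene models. Where lines shared position and strand (1241 positions, 107 with unlike values), the first by model name and offset was kept. Gene symbols came from the R64 gene table through the locus name (5704 models matched, 400 did not), and no coordinate was taken from it. No sequence is printed, because none accompanied the table.

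Sites measured in all 8 libraries entered a limma fit (version 3.58.1, R 4.3.3) of 4 group means, with 4 residual degrees of freedom, prior degrees of freedom 1.72 and prior SD 0.0375. Contrasts were KO minus WT and IP minus input. The fit was tested on simulated data. With 2 libraries against 2, an exact test of 1 site cannot go below 0.333. Medians per library were compared with exact two-sided sign-flip permutation tests over 8 libraries. Genotypes were compared with exact permutation within IP and within input (36 regroupings).

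Named sites passed the threshold and had no overlap between the 2 groups compared (for the interaction, the threshold alone), at most 1 per model, by size of change: up to 10 higher and 6 lower for IP between genotypes, 6 and 4 for input, 4 and 4 for WT, 3 and 3 for KO, 4 and 2 for the interaction, and up to 3 more per gene list. The members and lists were chosen with earlier results of these data known. Alternatives were a logit scale (offset 0.01), at least 6 of 8 libraries, a mean of at least 0.1, quantile normalization, another prior, fewer libraries, a replicate block, no value of 0.99 or above, each library left out, isolation limits of 100 and 200 nt, and neighbours in the same model. A separate fit per contrast, on all sites with values in its own 4 libraries, splitting sites at model edges, and a mean over models of the difference within a model, were added after seeing the data. The correlations of same-numbered deviations were between -0.0168 and 0.0788. They were highest for WT IP with WT input (0.0788) and for KO IP with KO input (0.0508). These small values do not settle whether replicate numbers pair the libraries.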

Additional observations from a re-analysis of the deposited data

Results flagged for a closer look

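At 6 isolated sites the difference between IP and input differed between KO and WT by the interaction term in limma. The 6 were the largest in each direction under the rule for naming sites, which takes a set number per direction. Of the 50 isolated sites that passed, 8 were higher in KO by at least 0.5. Some sites not named here therefore differed more than YOR019W +1095. At CSS1 +5870 the interaction was 0.59 ± 0.0696 (SE, adjusted p = 0.0132). IP minus input was near 0 in KO (0.984 and 0.855 in KO IP against 0.916 and 0.918 in KO input) and strongly negative in WT (0.169 and 0.122 in WT IP against 0.705 and 0.767 in WT input). SAM2 +1459, in the gene of an S-adenosylmethionine synthetase with a near-identical copy, had 0.54 ± 0.0514 (adjusted p = 0.00875). It had 0.965 and 0.974 in KO IP against 0.977 and 0.996 in KO input, and 0.324 and 0.246 in WT IP against 0.875 and 0.814 in WT input. PRE3 +342 had 0.58 ± 0.116 (adjusted p = 0.0418), with 0.415 and 0.632 in KO IP against 0.630 and 0.629 in KO input. UFE1 +1054 had 0.56 ± 0.0672 (adjusted p = 0.0141), with 0.682 and 0.626 in KO IP against 0.745 and 0.629 in KO input.

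HNM1 +384 and YOR019W +1095 went the other way, with -0.53 ± 0.107 (adjusted p = 0.0439) and -0.48 ± 0.0939 (adjusted p = 0.0394). YOR019W +1095 had 0.419 and 0.485 in KO IP against 0.420 and 0.397 in KO input, while its WT values were higher in IP. Without KO input replicate 1 or without KO input replicate 2 none of the 6 passed, with adjusted p between 0.0533 (UFE1) and 0.155 (HNM1). On the logit scale 4 of them did not pass, with adjusted p of 0.114 for CSS1, 0.0717 for PRE3, 0.129 for SAM2 and 0.117 for HNM1. The cause of these differences was not tested.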

How the results depend on the processing

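The higher median of isolated sites ranged between 0.0569 and 0.0710 with each library left out, their share measured between -13.8 and -12.1 points, and their share below 0.5 between -4.14 and -3.10 points. The median difference turned to -0.00896 with a limit of 200 nt (exact p = 0.672) and to -0.0169 at upstream edges (exact p = 0.453), and the share below 0.5 turned to 1.28 points with 200 nt (exact p = 0.281). Within models that hold both kinds of site, the median difference in the share measured was tied at 0 in 7 of 8 libraries, so its value of -0.532 points and exact p of 1 come from the measure and carry no information. The mean over models, added after seeing the data, was -6.39 points for the share measured and -4.51 points for the share below 0.5 (exact p = 0.0078125 for both), but 0.00269 for efficiency (exact p = 0.727), where the median over models was 0.0324. The within-model median of -17.2 points in the share below 0.5 is taken over coarse shares of few sites each. Counts of isolated sites past the threshold moved with the definition, since the number of members changes. Counts below are for limits of 100 nt and 200 nt and for neighbours in the same model, with shares against that of all tested sites. KO IP against WT IP gave 1386, 67 and 168 (38.8%, 31.5% and 37.4%, against 41.3%). KO input against WT input gave 1136, 59 and 134 (31.8%, 27.7% and 29.8%, against 32.2%). WT IP against WT input gave 735, 41 and 101 (20.6%, 19.2% and 22.5%, against 20.9%). KO IP against KO input gave 57, 3 and 9 (1.59%, 1.41% and 2.00%, against 1.68%). The interaction gave 243, 12 and 31 (6.80%, 5.63% and 6.90%, against 7.76%). Fitted alone on sites measured in its 4 libraries, KO input against WT input gave 449 (23.56%, against 25.01% of all sites in that fit). More sites entered that fit, and the share was below the 31.9% of the main fit. WT IP against WT input gave 81 on the logit scale (9.61%, against 12.2% of all tested sites). With its own 4 libraries it gave 72 (8.54%, against 9.85%). KO IP against KO input gave 9 with at least 6 of 8 libraries (0.666%, against 0.714% of all tested sites). It gave 9 with the robust prior (1.07%, against 1.31%), and 0 with its own 4 libraries. The interaction gave 3 on the logit scale and 32 with the robust prior. With each library left out, counts were 259 to 325 for KO IP against WT IP, 139 to 265 for KO input against WT input, 102 to 149 for WT IP against WT input, 0 to 3 for KO IP against KO input and 0 to 56 for the interaction. In the fits that gave the lowest of these counts, the share over all tested sites was below that of the main fit as well. Whether replicate numbers pair the libraries is not settled. With the replicate number as a block, KO IP against KO input gave 0 (against 0.0346% of all tested sites). The interaction gave 21 (2.49%, against 4.35%), and the other 3 counts stayed within 1.5 times. Of 966 alternatives over 59 named site comparisons, 115 lost the call and 0 changed direction. Leaving out a library removes data by construction; the cause of the other moves was not tested. Unknown read depth limits all single values.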
